A study of Mus musculus with 2 samples.

Results

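The 5hmC-poor windows are 179 stretches of 100 kb on the autosomes of E14 mouse embryonic stem cells in which only 1 to 20 cytosines were listed as carrying 5-hydroxymethylcytosine (5hmC). Chromosomes 1 to 19 were cut into windows of 100 kb from position 0, and the first and last window with a listed cytosine on each chromosome were left out. This gave 24123 interior windows, of which 179, or 0.742%, met the rule. E14 is an established mouse embryonic stem cell line, and the labels give passage 12 for both libraries. Genomic DNA was glucosylated and cut with AbaSI, an endonuclease that recognises glucosylated 5hmC and cuts a short distance away, and the cut ends were captured and sequenced. The series holds 2 libraries of 1 group. The deposited table gives them as 1 read count per listed cytosine, so there was no contrast between conditions, no replicate error and no test between samples. The windows were chosen by the number of listed cytosines in these same data, so that number is given as a description.

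5hmC is made when TET dioxygenases oxidise 5-methylcytosine, which in mammals lies mostly at CG dinucleotides. Embryonic stem cells express Tet1 and Tet2 and are known for a high level of 5hmC, found at enhancers and gene bodies among other places. Methylation outside CG, at CA, CT and CC (together called CH), is also known from embryonic stem cells. Mouse chromosomes 4 and 7 carry long arrays of duplicated genes, among them the major urinary protein genes on chromosome 4 and vomeronasal receptor genes on chromosome 7. No mm9 annotation or sequence was used here, so no window was assigned to a gene or a repeat and no sequence is printed.

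The whole table held 13025343 listed cytosines, called sites below, and 176006227 reads. The poor windows held 1678 of these sites and 13453 reads, or 0.0129% of the sites and 0.00764% of the reads. The lowest listed count was 2 reads. A cytosine without a line is therefore not a measured 0, and a poor window is a window with few listed sites, not one shown to lack 5hmC. The share of each window in which short reads can be placed was not tested.

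The poor windows had a median of 8 sites and 60 reads, against 390 sites and 4126 reads over all interior windows. Their reads ranged from 2 to 317, with quartiles of 29.5 and 105. They were spread over the whole range of the rule: 56 windows had 1 to 5 sites, 49 had 6 to 10, 40 had 11 to 15 and 34 had 16 to 20. A single site was listed in 16 of them. Just inside the limit, 6 windows had 20 sites, with 93 to 317 reads. Just outside it, 3 windows had 21 sites, with 133 to 161 reads. There were 283 windows with 21 to 40 sites and 941 with 41 to 60, so the limit of 20 sites lay in a flat tail below the body of the distribution. A further 263 windows had no listed site and do not count as poor windows.

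**Figure D1:**
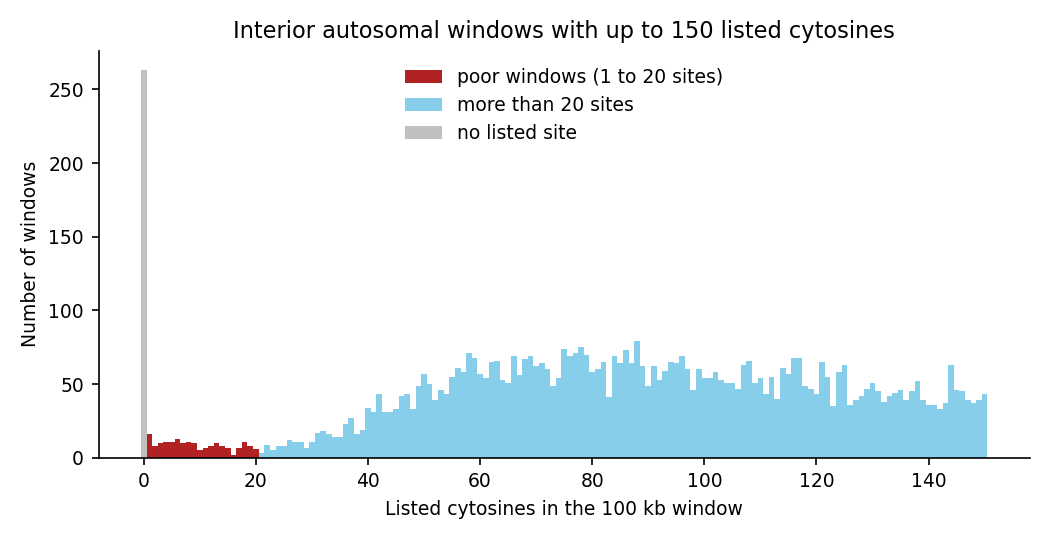
Number of interior autosomal windows of 100 kb (y axis) by the number of listed cytosines in the window (x axis, up to 150). The poor windows, in red, form a low flat tail, windows with more than 20 sites are blue, and the grey bar holds the 263 windows with no listed site.

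The poor windows gathered on few chromosomes. Chromosome 7 had 52 of them, chromosome 4 had 31, chromosome 14 had 29, chromosome 5 had 25 and chromosome 12 had 22. These 5 chromosomes held 88.8% of the poor windows and 28.7% of all interior windows. The share of interior windows that were poor was highest on chromosome 7, at 3.48%, followed by chromosome 14 with 2.38% and chromosome 4 with 2.03%. Another 8 chromosomes had 1 to 5 poor windows each, 20 in all. The remaining 6, chromosomes 9, 13, 15, 16, 18 and 19, had 0. The same 5 held 67.3% of the windows with no listed site. Chromosomes 7, 4 and 14 held 62.6% of the poor windows and 55.9% of the empty ones. Chromosome 7, with 52 poor and 112 empty windows, had the most of both kinds. It alone had 112 of the 177 empty windows on the 5, and 69 of these lay in 1 stretch with a single poor window. Chromosomes 4, 5, 12 and 14 had 14, 15, 15 and 21 empty windows. That was fewer than on chromosome 8, with 3 poor and 35 empty windows, and chromosome 1, with 2 and 22. Counts per chromosome do not show whether poor and empty windows lay side by side. On chromosome 14, for example, 17 empty windows lay among 20 poor ones between 3100001 and 8500000.

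**Figure D2:**
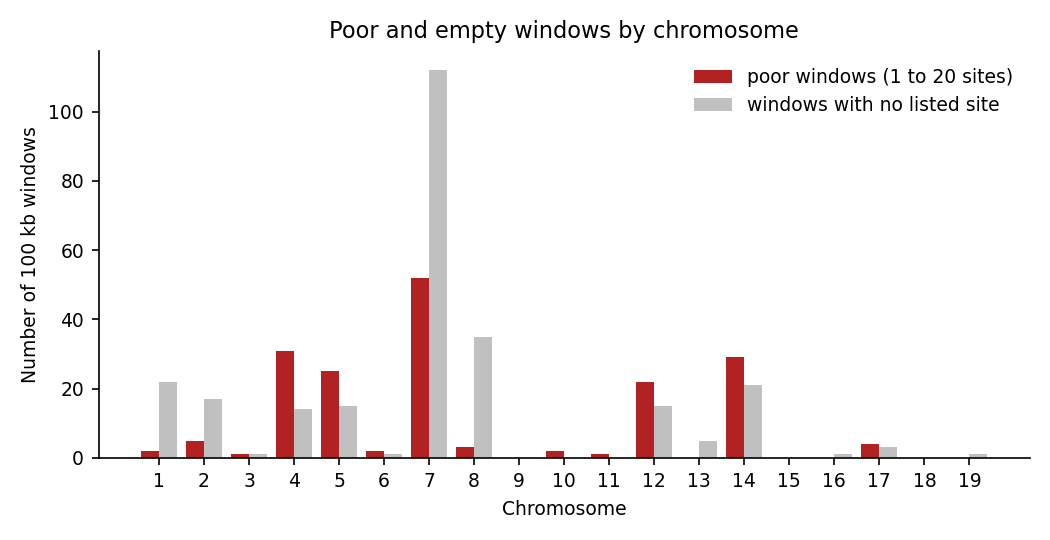
Number of poor windows (red, left bar) and of windows with no listed site (grey, right bar) on each autosome. Chromosomes 4, 5, 7, 12 and 14 each have 22 or more poor windows, and chromosome 8 has 3 poor windows but 35 empty ones.

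Poor windows lay next to each other. Of the 179, 125 had another poor window directly before or after them, or 69.8%. Over the 357 window positions that border a poor window, 47.6% were poor, against 0.742% of all interior windows. A further 14.3% of these positions were empty, 14.6% had 21 to 40 sites and 15.7% had 41 to 100 sites. Windows with more than 100 sites made up 7.84% of the bordering positions and 82.8% of all interior windows. In all, 145 poor windows bordered another poor window or an empty one, and 34 bordered neither. Only 3 poor windows lay between a pair of windows with more than 100 sites each. Of the windows with 21 to 40 sites, 106 of 283, or 37.5%, lay next to another of their kind. Windows of 1 genome are not independent samples, so these shares are given without a test.

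The 179 windows formed 94 runs of consecutive poor windows. Of these, 54 were single windows and 25 were pairs. The other 15 runs had 3 to 12 windows and together held 75 poor windows, or 41.9%. The longest, of 12 windows, was on chromosome 4 from 112500001 to 113700000. Its windows held, in order, 11, 13, 8, 9, 2, 8, 17, 15, 3, 7, 15 and 17 sites, 125 in all with 905 reads. The windows on either side had 24 and 37 sites, so this run had no abrupt edge. Its length depends on the grid and the limit: the longest run had 19 windows when windows were shifted by 50 kb, and 4 when the limit was 10 sites. The second, of 9 windows, was on chromosome 5 from 94600001 to 95500000, with 17, 2, 4, 6, 1, 16, 8, 5 and 6 sites and 392 reads. It lay between empty windows on both sides.

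The next 3 runs were all on chromosome 7. The run from 21500001 to 22200000 had 7 windows with 4, 3, 8, 18, 4, 19 and 1 sites and 429 reads, again between empty windows. The run from 32900001 to 33500000 had 6 windows with 15, 13, 14, 8, 5 and 5 sites and 477 reads, with a window of 25 sites before it and an empty one after it. The run from 54600001 to 55200000 had 6 windows with 18, 11, 5, 12, 20 and 12 sites and 712 reads, between windows of 46 and 33 sites. When windows without a site were allowed to join neighbouring poor windows, the longest stretch was on chromosome 7 from 39400001 to 46400000, but 69 of its 70 windows were empty and 1 was poor. The stretch with the most poor windows was then on chromosome 5 from 94200001 to 96200000, with 16 poor and 4 empty windows. Of the 263 empty windows, 171 lay in a stretch with a poor window.

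**Figure D3:**
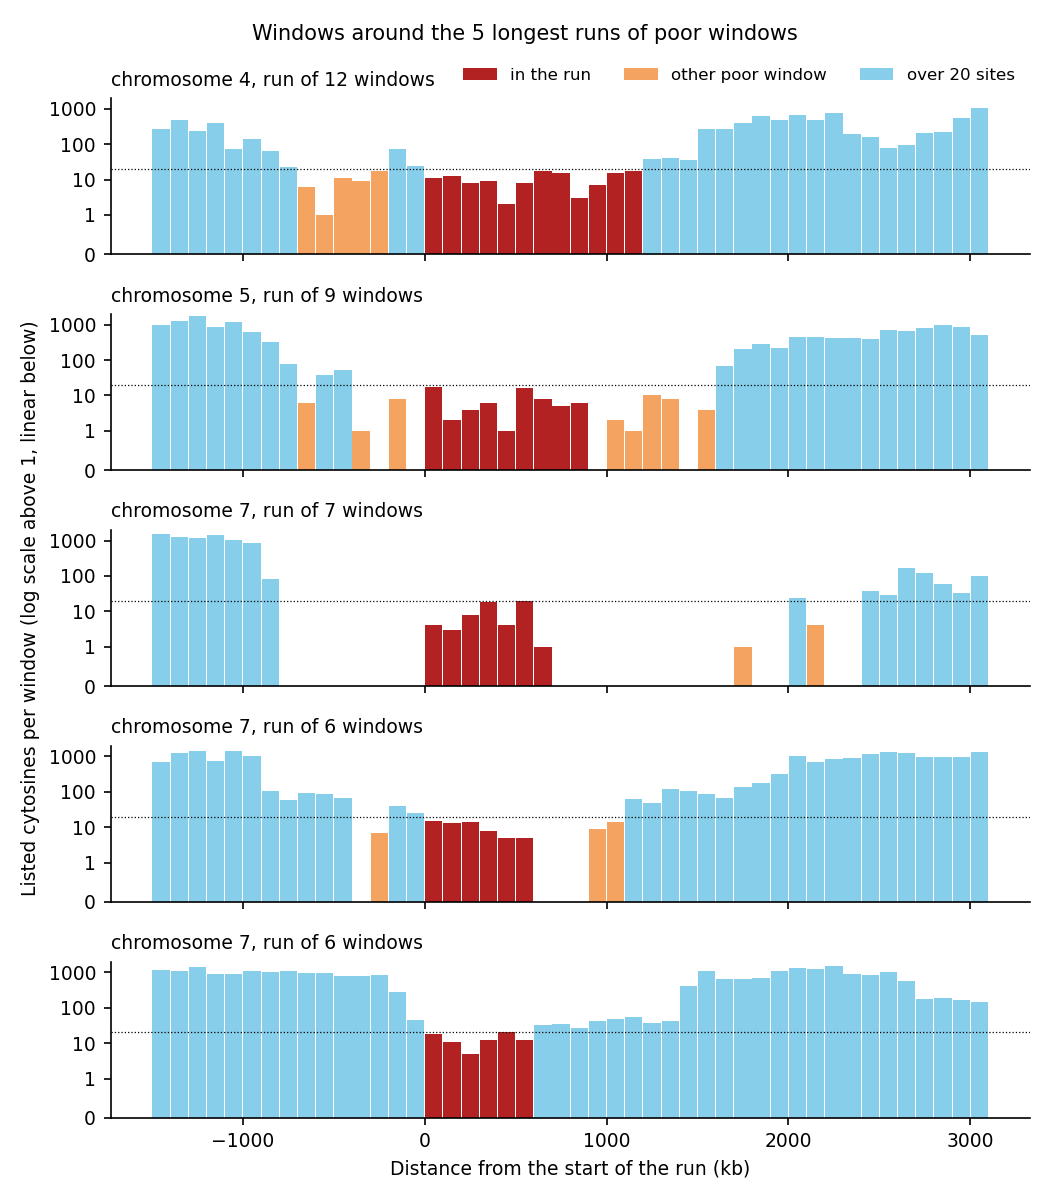
Listed cytosines per 100 kb window (y axis, logarithmic above 1) by distance from the start of each of the 5 longest runs (x axis, in kb). Windows of the run are red, other poor windows orange, windows with more than 20 sites blue, gaps are windows with 0 sites, and the dotted line marks 20 sites. The runs on chromosome 4 and the last one on chromosome 7 grade into windows of 24 to 46 sites, and the runs of 9 and 7 windows border empty windows.

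On a larger scale, poor windows no more than 1 Mb apart were joined into blocks. This gave 41 blocks, of which 13 had 5 or more poor windows and together held 135, or 75.4% of the total. The block with the most was at the start of the listed part of chromosome 14, from 3100001 to 8500000. It held 20 poor windows, 17 empty ones, 15 with 21 to 100 sites and 2 with more than 100. Blocks with 17 poor windows lay on chromosome 4 from 111800001 to 113700000 and on chromosome 5 from 93900001 to 96200000. The chromosome 4 block was nearly unbroken, with 17 poor windows out of 19 and 0 empty ones. Blocks with 14 lay on chromosome 7 from 7500001 to 10600000 and on chromosome 12 from 21700001 to 24900000. In the first of these, 15 of the 31 windows were empty and 14 were poor. The other 8 blocks of 5 or more had 5 to 9 poor windows each, on chromosomes 4, 5, 7 and 14.

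The 20 poor windows outside these 5 chromosomes stood alone or in pairs. Chromosome 1 had a window from 158000001 to 158100000 whose neighbours held 831 and 927 sites. All of its 20 sites lay between 158098905 and 158099964, in the last part of the window, and 18 of them were CG. This was the largest group of sites in any poor window with gaps of no more than 1 kb. The other chromosome 1 window, from 26100001 to 26200000, also had 20 sites, but its neighbours had 68 and 57. Chromosome 2 had 5 windows with 3 to 20 sites, 3 of which bordered an empty window. Chromosomes 6, 8, 10 and 17 had 2, 3, 2 and 4, of which all but 1 on chromosome 8 were in pairs. The pair on chromosome 10 from 81200001 to 81400000 and the pair on chromosome 17 from 23100001 to 23300000 lay between windows of 117 to 189 sites. Chromosomes 3 and 11 had 1 poor window each, with 15 and 11 sites.

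CG cytosines made up a smaller share of the sites in poor windows than elsewhere. They were 1262 of 1678 sites, or 75.2% (exact 95% binomial interval 73.1 to 77.3), and the remaining 416 were CH. In windows with 21 to 40 sites the CG share was 81.5% (80.7 to 82.2), with 41 to 100 sites 87.3% (87.1 to 87.4), and with more than 100 sites 94.2% (94.18 to 94.21). These intervals cover counting error only, since neighbouring sites and PCR copies are not independent. By chromosome, the CG share in poor windows was below that in windows with more than 100 sites on 13 of 13 chromosomes. It was below that in windows with 41 to 100 sites on 10 of 13. Against windows with 21 to 40 sites it was lower on 6 of 12 chromosomes and higher on 6. Of the 13 chromosomes, 8 had only 1 to 5 poor windows. On the 5 with 20 or more, the share was lower than with 41 to 100 sites on 5 of 5. On these it was lower than with 21 to 40 sites on 3 and higher on 2. The difference from that neighbouring band was thus not seen from chromosome to chromosome. Within the poor windows the share did not order with the number of sites: it was 79.5% in windows with 1 to 5 sites, 80.9% with 6 to 10, 71.7% with 11 to 15 and 73.6% with 16 to 20.

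In numbers per window, both kinds of site were fewer, but CH less so. A poor window had on average 7.05 CG and 2.32 CH sites, against 593.1 CG and 36.5 CH sites in a window with more than 100. Of the poor windows, 61 had CG sites only, 7 had CH sites only and 25 had more CH than CG sites. Both extremes were more frequent where sites were few. Among the 79 poor windows with at least 10 sites, 10 had more CH than CG and 9 had CG only, against 1 and 11 of the 283 windows with 21 to 40 sites. Few sites per window make such extremes more likely by themselves, so these counts are not a like-for-like comparison. The kinds of CH were CA with 208 sites, CT with 153 and CC with 55. CA thus made up 208 of 416 CH sites in poor windows (interval 45.1 to 54.9%) and 52.4% in windows with more than 100 sites. CT made up 36.8% (32.1 to 41.6) in poor windows and 33.9% in windows with more than 100 sites. Both differences were within the counting error of the poor windows.

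The CG share differed between places. Among the 5 chromosomes with 20 or more poor windows it ranged from 62.5% on chromosome 4 (56.6 to 68.2) to 88.2% on chromosome 5 (82.2 to 92.7). Among the 13 blocks with 5 or more poor windows it was lowest on chromosome 7 from 54600001 to 55200000, with 37 CG and 41 CH sites, or 47.4% (36.0 to 59.1). The chromosome 4 block from 111800001 to 113700000 had 88 CG and 81 CH sites, or 52.1% (44.3 to 59.8). The chromosome 7 block from 66600001 to 68100000 had 59.0% (45.7 to 71.4). At the other end, the chromosome 14 block from 42400001 to 43500000 had 64 CG and 2 CH sites, or 97.0% (89.5 to 99.6). The 3 blocks with the lowest share, picked after their values were seen, held 147 of the 416 CH sites, or 35.3%. The poor windows without these 3 blocks had a CG share of 80.4% (78.2 to 82.4). Taking out the lowest blocks had to raise this share, and nothing was taken out of the windows with 21 to 40 sites. This share therefore cannot be compared with theirs.

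Windows that did not meet the rule gave a local comparison. For each of the 13 blocks, the windows with more than 20 sites inside it or within 1 Mb of it were pooled. These surroundings were not matched to the poor windows in number of sites. Their median was 42 to 433.5 sites per window over the blocks. The CG share also rose with the number of sites per window, so place and number of sites cannot be told apart here. The CG share of the poor windows was lower than that of these surroundings in 12 of 13 blocks, and in 6 of them the exact intervals did not overlap. In the chromosome 4 block it was 52.1% in poor windows and 92.6% (91.8 to 93.3) in the 22 surrounding windows. In the chromosome 7 block from 54600001 it was 47.4% in poor windows and 84.6% (83.9 to 85.3) in 20 surrounding windows. In the chromosome 7 block from 66600001 it was 59.0% in poor windows and 77.1% (75.3 to 78.8) around them, the lowest share of any surroundings. On chromosome 14 from 42400001 the order was the other way, with 97.0% in poor windows and 95.7% around them, and the intervals overlapped.

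**Figure D4:**
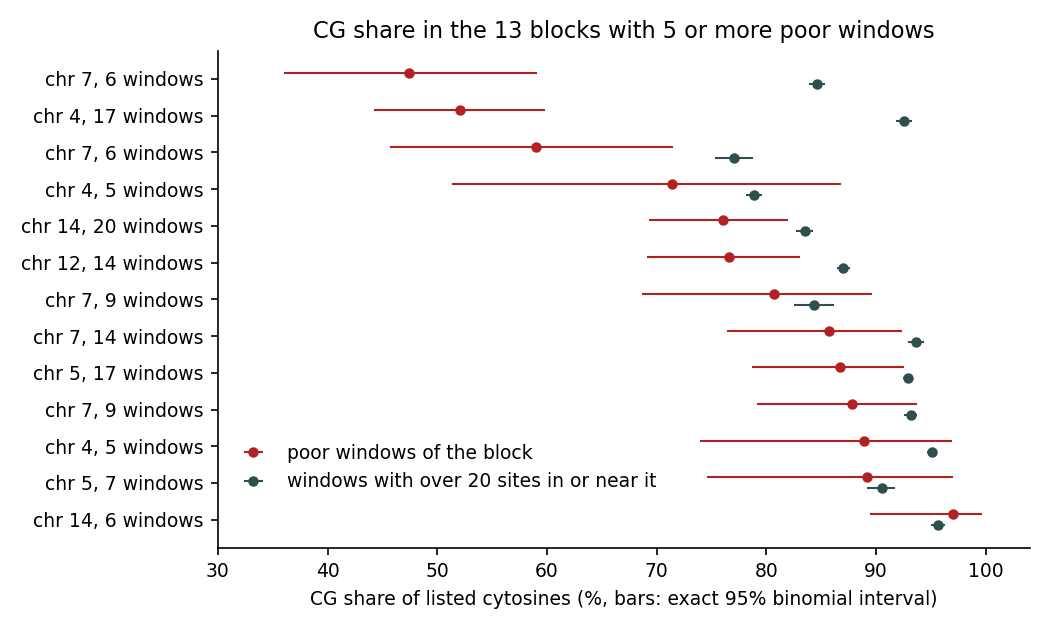
CG share of listed cytosines (x axis, %) in the 13 blocks with 5 or more poor windows, for the poor windows (red, upper point) and for windows with more than 20 sites inside the block or within 1 Mb (dark, lower point). Bars are exact 95% binomial intervals, and the red point lies left of the dark one in 12 of the 13 blocks.

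Sites in poor windows carried few reads each. The median was 5 reads per site, with quartiles of 3 and 9, and the mean was 8.02 ± 9.52 (SD over 1678 sites). The mean was 7.74 in windows with 21 to 40 sites, 7.76 with 41 to 100 and 13.6 with more than 100, where the median was 10. Pooled over chromosomes, mean reads per site were thus similar in all windows with up to 100 sites. They were lower there than in windows with more than 100. The mean in poor windows was below that of windows with more than 100 sites on 13 of 13 chromosomes. Against windows with 41 to 100 sites it was lower on 7 and higher on 6. On the 5 chromosomes with 20 or more poor windows it was lower on 2 and higher on 3. Against windows with 21 to 40 sites it was lower on 5 of 12 chromosomes and higher on 7. On the 5 chromosomes it was then lower on 1 and higher on 4. The mean of 7.74 in that band includes 5 windows on chromosome 8 with a mean of 29.6 reads per site. CG sites had a median of 6 reads in poor windows and 10 in windows with more than 100 sites, and CH sites 4 and 5. Sites at the lowest listed count of 2 reads made up 14.7% in poor windows, 10.1% in windows with 41 to 100 sites and 3.75% in those with more than 100. Sites with more than 20 reads made up 5.84%, 4.36% and 17.0% in the same order. Around the 13 blocks, reads per site were lower in the poor windows than in their surroundings, not matched in number of sites, in 12 blocks. The exception was chromosome 4 from 145300001 to 146500000, with 14.6 reads per site in poor windows and 13.5 around them.

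**Figure D5:**
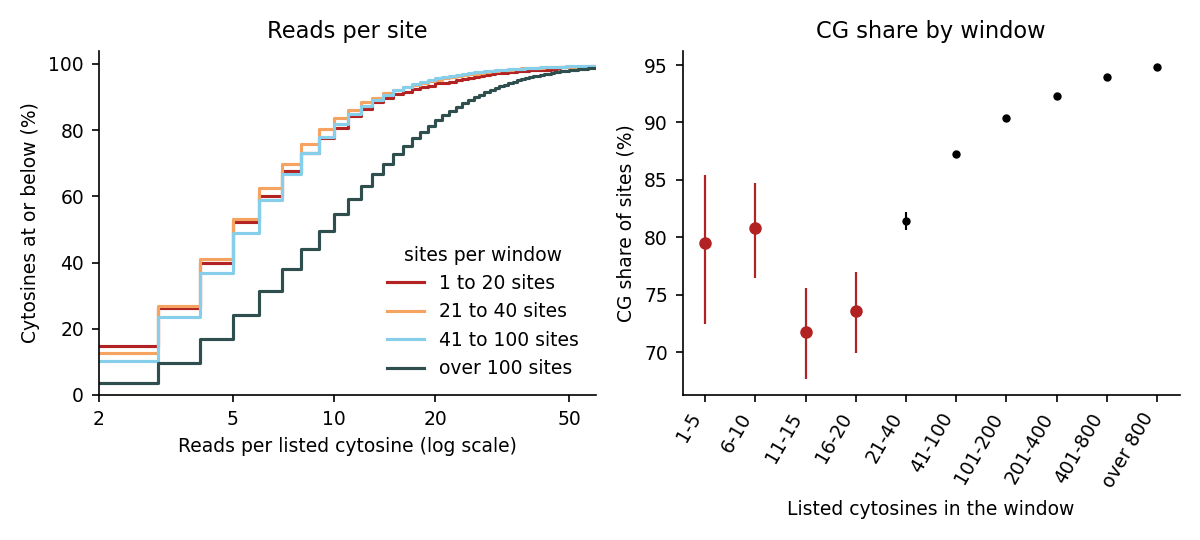
Left: share of listed cytosines (y axis, %) with at most the given number of reads (x axis, log scale), for windows with 1 to 20, 21 to 40, 41 to 100 and more than 100 sites. The first 3 curves nearly coincide. Right: CG share of sites (y axis, %) by the number of sites in the window (x axis), with the poor windows in red and exact 95% binomial intervals as bars; it reaches 71.7% with 11 to 15 sites and 94.9% with more than 800.

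The plus strand held 50.2% of the sites in poor windows (47.8 to 52.6). A CG dyad, the CG and its partner on the other strand, was rarely listed on both strands: 92 of 1170 dyads in poor windows, or 7.86% (6.39 to 9.56). The share was 7.30% (6.70 to 7.93) in windows with 21 to 40 sites, 10.8% with 41 to 100 and 38.1% with more than 100. Median reads per CG site were 6, 6, 6 and 10 in the same order of windows, and their part in the difference was not tested. Over the 5 chromosomes with 20 or more poor windows the share ranged from 4.04% on chromosome 7 to 12.9% on chromosome 14.

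The mix of the authors' class codes, which the labels do not explain, changed with the number of sites per window. The classes 2CG and 2CH together made up 23.6% of sites in poor windows (21.6 to 25.7). Their share was 18.4% in windows with 21 to 40 sites, 16.3% with 41 to 100 and 11.2% with more than 100. Of the plus-strand sites of these classes in poor windows, 173 of 196, or 88.3%, were followed on the minus strand, 21 to 25 bp to the right, by a site of these classes, and 166 of these pairs had equal read counts. The share followed in this way was similar in the other windows: 87.2% with 21 to 40 sites, 89.0% with 41 to 100 and 87.1% with more than 100. Whether such a pair is 1 set of reads listed at both cytosines is not stated in the labels. With both classes set aside, the CG share was 85.6% (83.5 to 87.4) in poor windows, 89.8% with 21 to 40 sites, 93.6% with 41 to 100 and 97.5% with more than 100, the same order as before. The class CGCH was the most frequent in poor windows, with 681 sites (40.6%), followed by 1CG with 416 (24.8%), 2CH with 231 (13.8%), 1CH with 185 and 2CG with 165 (9.83%). CGCH was also first and 1CG next in the other windows. There CGCH made up 46.0% with 21 to 40 sites, 48.6% with 41 to 100 and 51.6% with more than 100. In poor windows, mean reads per site were 12.1 in 2CG and 8.28 in CGCH, against 6.08 in 2CH.

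In most poor windows the sites spanned more than 50 kb, with small groups among them. In the 163 windows with more than 1 site, the first and last site lay a median of 67.4 kb apart. In 109 of them they were more than 50 kb apart, and in 19 less than 10 kb. When sites no more than 1 kb apart were joined, the 1678 sites formed 972 groups, of which 622 were single sites and 145 had 3 or more. The single sites were 37.1% of all sites in poor windows, and the groups of 3 or more held 646 of the 1678. After the group on chromosome 1, the largest were 12 sites within 99 bp on chromosome 17 from 40129679 to 40129777, 10 of them CG, and 12 CG sites on chromosome 5 from 95152632 to 95153408. A group of 8 sites on chromosome 14 from 7469816 to 7469898 was all CH. Another listed site lay within 100 bp of 47.5% of sites in poor windows, against 87.9% in windows with more than 100 sites. That distance depends on the number of sites per window, which the rule used.

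Reads were most numerous in the poor window on chromosome 7 between 55000001 and 55100000, where 20 sites, 14 of them CH, held 317 reads. On chromosome 4, the 17 sites between 146200001 and 146300000 held 298 reads. On chromosome 14, the 13 sites between 5900001 and 6000000 held 286 reads and the 16 sites between 5100001 and 5200000 held 275. The fifth window, on chromosome 4 between 113200001 and 113300000, had 258 reads at 15 sites. In that last window a close pair of sites held most of the reads: the minus-strand CG at 113244240 had 102 reads and the plus-strand CG at 113244219 had 101. These were also the sites with the most reads in any poor window. They lie 21 bp apart, and whether the same reads are listed at both is not stated in the labels. The next sites, on chromosome 5 at 95917193 and 95917169, were a minus-strand CC site with 98 reads and a plus-strand CA site with 92. Whether these share reads is not stated either. The fifth was the CG at 42915561 on chromosome 14, with 89 reads. No site in a poor window passed 102 reads, while single sites in windows with 21 to 40 sites reached 1106.

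Among poor windows with at least 10 sites, the CH share was highest on chromosome 6 from 130200001 to 130300000 and on chromosome 7 from 54900001 to 55000000, each with 9 of 12 sites. The chromosome 6 window had 34 reads and the chromosome 7 window had 86. Chromosome 4 from 112500001 to 112600000 and chromosome 14 from 7400001 to 7500000 followed, each with 8 of 11 sites, or 72.7%. The fifth was the chromosome 7 window with the most reads, at 70.0%. Of these 5 windows, 2 neighbour each other and 1 opens the longest run. At the low end, 5 windows had a single site with 2 or 3 reads, 2 of them on chromosome 5, 2 on chromosome 7 and 1 on chromosome 4. The sites were CH in 3 of these 5.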

How the data were processed

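Genomic DNA of 2 libraries of E14 cells was profiled. The submitters' processing notes name CASAVA 1.8.2, Bowtie and genome build mm9. The authors deposited read counts as whole numbers, 1 per listed cytosine, in 1 count column for the whole series. As far as the labels tell this column pools the libraries, and how they were pooled is not stated. The listing rule, the treatment of PCR copies and the aligner's version are not stated in the labels. Counts sum to 176006227 over listed cytosines; this is not the sequencing depth, since sites below 2 reads are not listed and some reads may be listed at a pair of cytosines. Depth per library is unknown.

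The table was read with Python 3.11.15, numpy 2.4.6, pandas 2.3.3 and scipy 1.17.1. All sites were kept. Positions are printed 1-based. Shares carry exact Clopper-Pearson intervals at 95%, which cover counting error only. Window, run and dyad functions were tested on simulated sites. The rule for named regions took the 5 longest runs, the 5 poor windows with the most and with the fewest reads, the 5 sites with the most reads and the 5 windows with the largest CH share among those with at least 10 sites. Blocks, surroundings and groups of sites were described after the values were seen. The members and lists were chosen with earlier results of these data known. The RefSeq tables at hand are of another assembly and were not used.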

Additional observations from a re-analysis of the deposited data

How the results depend on the processing

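Across 8 results and 103 alternative values, 75 lay within the error allowed and 28 moved. The error allowed was the exact interval for shares, 1.5 times for counts and run length, and the SD over 5 chromosomes for reads. For shares of windows the exact interval treats neighbouring windows as independent and is too narrow. Some of the 75 say nothing about stability. Leaving out the top 0.1% of sites removed only sites with more than 168 reads, and no site in a poor window passed 102. All 8 values stayed as they were. Counting empty windows as members adds no site, so the CG share, reads per site and dyads could not move. With a minimum of 5 reads per site, 353 windows were poor, 57.5% of them next to another, with 51.0% on the 3 leading chromosomes, a CG share of 84.0%, 8 reads per site at the median and 10.5 in the mean, and 5.85% of dyads on both strands. With 1 to 10 sites, 105 windows were poor, 54.3% next to another, the longest run was 4, the CG share 80.4% and dyads on both strands 5.88%. With 1 to 40 sites these were 462 windows, 60.6% next to another, a CG share of 80.5% and 47.4% on 3 chromosomes. Windows of 50 kb with 1 to 10 sites gave 418, with 60.8% next to another, 54.5% on 3 chromosomes and 4.77% of dyads. Windows shifted by 50 kb gave a longest run of 19. Counting empty windows as members gave 442 windows, 89.8% next to another, and a longest run of 70. CG sites alone gave a median of 6 reads. Leaving out the 2CG and 2CH classes, an alternative chosen after seeing the data, gave a CG share of 86.9%. Leaving out chromosome 4, also chosen then, gave a CG share of 77.8% and 71.6% on 3 chromosomes. Of the 179 windows, 165 were still poor with the minimum of 5 reads and 172 with CG sites alone. A minimum of 5 reads takes out the sites with the lowest counts, so reads per site rise by the setting itself. Leaving out 2CG and 2CH takes out 231 of the 416 CH sites in the 179 windows and 165 of the 1262 CG sites. With these 179 windows held fixed, that gave a CG share of 85.6%. The cause of the other moves was not tested, though filters on sites and limits change which windows enter. No paired analysis was possible because both libraries are in 1 count column, and for the same reason neither library could be left out.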

Other observations

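The X chromosome, which the rule leaves out, was described in the same way, with no test. Windows with 1 to 20 sites made up 0.742% of interior windows on the autosomes and 12.0% on X, where they numbered 197 of 1635. Another such window lay next to 69.8% of the autosomal poor windows and next to 61.9% of those on X, where the longest run had 10 windows. The CG share of sites was 75.2% (73.1 to 77.3) in the autosomal poor windows and 88.7% (87.4 to 90.0) in those on X. The median was 5 reads per site in both, and the mean was 8.02 on the autosomes and 6.55 on X. Dyads were listed on both strands in 7.86% of cases (6.39 to 9.56) in the autosomal poor windows and in 4.39% (3.52 to 5.39) in those on X. The median interior window had 390 sites on the autosomes and 56 on X, so a limit of 20 sites reaches further into the distribution of X.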
